A study of Mus musculus with 4 samples.

Results

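The 10 genes described here are the core of the NRF2 antioxidant response as it can be read from messenger RNA. They are *Nfe2l2*, which encodes the transcription factor NRF2, *Keap1*, which encodes its sensor and inhibitor, and 8 genes of antioxidant defense, namely *Slc7a11*, *Gclc*, *Gclm*, *Txnrd1*, *Srxn1*, *Hmox1*, *Nqo1* and *Sod2*. They were chosen by symbol from the 48587 genes of the count table, with no threshold on a measured value, although results of these data were known when they were chosen. All 10 passed the filter on low counts and were among the 18916 genes tested. The libraries came from primary vascular smooth muscle cells (VSMCs) that grew out of the descending aorta of adult C57BL/6J mice after the adventitia had been removed and the endothelium scraped off. The cells were transduced with lentivirus expressing a control hairpin (shCTR) or a hairpin against *Mettl14* (shMettl14), and poly-A–enriched RNA was sequenced. Mettl14 is a subunit of the enzyme complex that writes m6A, a methyl mark on adenosines of mRNA. Each group had 2 libraries, which carry the letters A and B. All 4 libraries thus came from cells carrying a virus and a hairpin, 1 hairpin sequence was used per group, and untransduced cells were not analysed here. No source states that a letter marks a shared culture or animal, so that p-values measure the spread between these libraries, which may be technical.

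In unstressed cells, KEAP1 holds NRF2 in the cytoplasm and presents it to a ubiquitin ligase built on cullin 3, and NRF2 protein is degraded. When reactive cysteines of KEAP1 are oxidized or modified, NRF2 escapes degradation, pairs with a small MAF protein in the nucleus and binds antioxidant response elements. Its activity is therefore set largely at the level of protein, and a message level does not report it directly. The target genes supply cystine and glutathione, recycle thioredoxin and peroxiredoxins, degrade heme and reduce quinones. In smooth muscle of the vessel wall, reactive oxygen made by NADPH oxidases acts as a growth signal, and heme oxygenase 1 is known as a restraint on proliferation after injury.

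Promoter stretches that hold the letters of the NRF2 element are shown first, because that element is the one by which NRF2 is known to act. RefSeq windows on GRCm38.p6, from 250 bases before to 50 bases after an annotated start, were at hand for 8 of the 10 genes (10 windows in all). No window was used for *Hmox1* or *Gclc*. The core of the antioxidant response element was searched on both strands as TGACNNNGC. It occurred in a window of 4 genes, and 12.4% of all 32851 promoter windows of the same length held it. The matches are printed along the gene with 12 flanking bases where the window allowed, and capitals mark the match, which on the opposite strand appears as its reverse complement.
*Nfe2l2*, chr2:75704883-75704913, minus strand, 240 bases upstream: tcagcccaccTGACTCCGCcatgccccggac
*Gclm*, chr3:122245411-122245443, plus strand, 134 bases upstream: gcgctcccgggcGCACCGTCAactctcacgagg
*Txnrd1*, chr10:82859102-82859134, plus strand, 92 bases upstream of an internal start: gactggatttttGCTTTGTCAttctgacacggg
*Srxn1*, chr2:152105540-152105572, plus strand, 28 bases after the start: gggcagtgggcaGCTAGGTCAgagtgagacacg
*Slc7a11* is also known as a target of ATF4, the transcription factor of the amino acid response, and its window was searched for TGATGNAA, an ATF4 element. *Slc7a11* was the only 1 of the 8 genes with a match, and 3.97% of all windows held it. Its window held the element on each strand, 66 and 47 bases upstream of the start, and the flanks of these prints overlap.
*Slc7a11*, chr3:50443660-50443691, minus strand: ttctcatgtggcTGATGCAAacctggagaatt
*Slc7a11*, chr3:50443641-50443672, minus strand: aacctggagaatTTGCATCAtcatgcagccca
These matches describe letters in a window, and neither binding nor any element outside the windows was measured.

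The targeted gene was checked before the others. *Mettl14* had 2050 and 2154 counts in shCTR A and B and 546 and 568 counts in shMettl14 A and B, so that its normalized level with the hairpin was 23.6% of that in shCTR. Library totals ranged from 114343653 to 124815868 counts, and the floor for a gene without reads, taken as 3 counts, was at most 0.0278 CPM. CPM here are read counts scaled to library size with TMM factors. Libraries of the same letter resembled each other more (r of log2 CPM across genes of 0.985 for A and 0.977 for B) than libraries of the same hairpin (0.953 for shCTR and 0.969 for shMettl14). Summed over 6 VSMC markers, levels were 6796 and 5763 CPM in shCTR A and B and 4441 and 4802 CPM in shMettl14 A and B. Summed over 7 endothelial markers they were 1832, 3913, 1722 and 2408 CPM in the same order, so that endothelial message was present in every library and was highest in shCTR B. *Pecam1* (477 to 820 CPM) and *Cdh5* (508 to 818 CPM), which are among these markers, were far from 0, although the labels name smooth muscle cells. Summed over 8 leukocyte markers, levels were 11.2 to 15.3 CPM, and 0 to 3 of these genes had no count in a library. In bulk RNA, fewer cells of a type and less RNA per cell cannot be told apart.

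Across the 10 genes no difference between the hairpins passed the test. With edgeR's quasi-likelihood test, 0 of the 10 had an adjusted p under 0.05, and the same was true of all 18916 genes tested (0%), *Mettl14* included (log2 fold change −2.08 ± 0.25 SE, adjusted p = 1.0). DESeq2 called 4 of all genes, *Mettl14* among them, and likewise 0 of the 10. In simulated counts whose letters differed as measured here, this edgeR fit did not recover changed genes, so that its lack of calls does not show equal levels. At an unadjusted p under 0.05, edgeR counted 0 of the 10 and 315 of all genes tested, which is 1.67%. The genes *Nfe2l2*, *Hmox1*, *Nqo1*, *Gclm*, *Txnrd1*, *Srxn1* and *Sod2*, had a log2 fold change below 0, and *Slc7a11*, *Gclc* and *Keap1* had one above 0. The median of the 10 was −0.15, against 0.0094 over all genes tested. Without shCTR A the median of the 10 was −0.03, and without shMettl14 A it was −0.25.

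The same libraries were also compared within each letter, which is not independent of the fit. The level was lower with shMettl14 in both letters for 6 of the 10 genes, where 27.6% of all genes tested were, and higher in both letters for 2 of the 10, where 30.0% of all were. *Keap1* and *Nqo1* were lower in letter A and higher in letter B. The median of the 10 genes' log2 ratios was −0.14 within A and −0.15 within B, against 0.0027 and 0.022 over all genes. Both shMettl14 libraries were below both shCTR libraries for *Txnrd1* and *Sod2*, that is for 2 of the 10 beside 13.3% of all genes tested. Both were above for *Gclc* alone, 1 of the 10 beside 14.7% of all. With 2 libraries against 2, an exact two-sided permutation test of a single gene cannot go below p = 0.333.

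**Figure D1:**
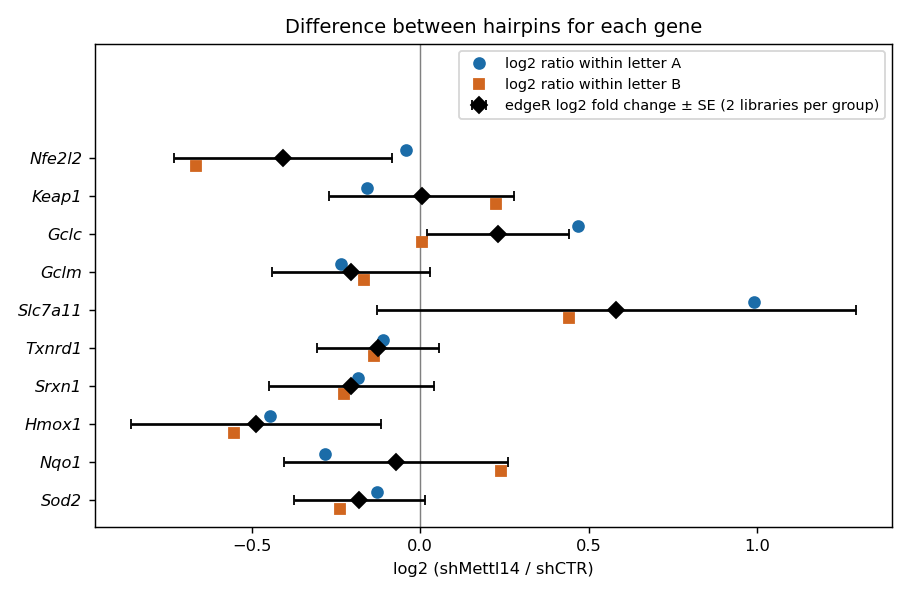
Log2 fold change, shMettl14 against shCTR, for each of the 10 genes, with the fitted value and its standard error from edgeR (black, 2 libraries per group) and the log2 ratio within letter A (blue circles) and letter B (orange squares). The fitted values lie between −0.49 and 0.58, and the marks of the letters fall on opposite sides of 0 for *Keap1* and *Nqo1*.

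*Nfe2l2* (ENSMUSG00000015839, chromosome 2 of GRCm38 from 75675513 to 75704641, minus strand) encodes NRF2. Its level was 160 and 282 CPM in shCTR A and B and 155 and 178 CPM in shMettl14 A and B. The library shCTR B was alone at a high level, the remaining libraries lay between 155 and 178 CPM, and the groups overlapped. The means were 221 ± 86.8 CPM with shCTR and 167 ± 16.1 CPM with shMettl14 (SD, n = 2), and the log2 fold change was −0.41 ± 0.32 SE (edgeR, adjusted p = 1.0). The log2 ratio was −0.04 within A and −0.67 within B. Without shCTR B the fold change became 0.06 on the log2 scale, so that its direction rests on that library. *Pecam1* and the summed endothelial markers were also highest in shCTR B and next highest in shMettl14 B. Among these markers *Emcn* had the widest range, from 484 CPM in shMettl14 A to 2099 CPM in shCTR B. *Tie1* did not follow this order, at 171 and 136 CPM in shCTR A and B and 158 and 134 CPM in shMettl14 A and B. The part of endothelial markers in the *Nfe2l2* values was not tested.

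*Keap1* (ENSMUSG00000003308, chromosome 9 from 21229730 to 21239361, minus strand) encodes the sensor that keeps NRF2 low. Its level was 53.2 and 35.0 CPM in shCTR A and B and 47.7 and 40.8 CPM in shMettl14 A and B. Both shMettl14 libraries lay between the shCTR libraries, and the group means were nearly equal at 44.1 ± 12.9 and 44.2 ± 4.83 CPM (SD, n = 2). The log2 ratio was −0.16 within A and 0.22 within B, and the fitted log2 fold change of 0.005 ± 0.28 SE turned to −0.003 with DESeq2 and with RLE factors, and to −0.27 without shCTR B and −0.11 without shMettl14 A. Of its exon bases 10.9% overlap a gene on the other strand, and the strand setting of the counting is not given in the sources used here. The ratio of *Keap1* to *Nfe2l2*, both per kilobase of exon, was 0.269 and 0.100 in shCTR A and B and 0.248 and 0.186 in shMettl14 A and B. It was slightly lower with shMettl14 in letter A (log2 ratio −0.12) and higher in letter B (0.89), and the shCTR libraries enclosed the shMettl14 libraries.

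**Figure D2:**
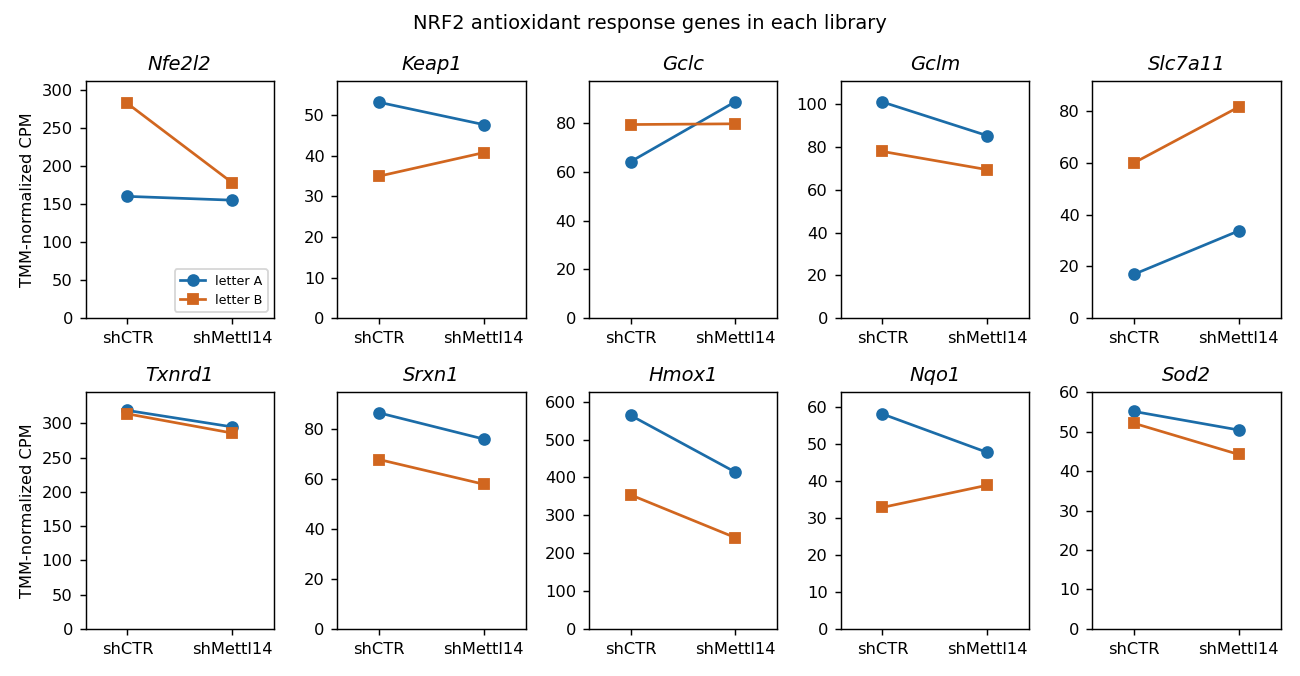
Level of each of the 10 genes in the 4 libraries in CPM, each panel with its own axis from 0, with shCTR at the left and shMettl14 at the right, and with lines joining the libraries of letter A (blue circles) and of letter B (orange squares). *Slc7a11* spreads from 17.0 to 81.7 CPM with both B libraries above both A libraries, whereas *Txnrd1* stays between 286 and 319 CPM.

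The first group of targets supplies glutathione, the main small thiol of the cell. *Slc7a11* (ENSMUSG00000027737, chromosome 3 from 49892526 to 50443614, minus strand) encodes xCT, the transport subunit of the cystine and glutamate exchanger that brings in cystine. Its level was 17.0 and 60.1 CPM in shCTR A and B and 33.8 and 81.7 CPM in shMettl14 A and B. It was higher with shMettl14 within each letter, by 0.99 on the log2 scale in A and 0.44 in B, but shMettl14 A was below shCTR B, so that the groups overlapped. The difference between the letters was larger than that between the hairpins, with B above A by 1.82 in shCTR and by 1.27 in shMettl14. The means were 38.6 ± 30.5 and 57.8 ± 33.8 CPM (SD, n = 2), and the log2 fold change was 0.58 ± 0.71 SE (edgeR, adjusted p = 1.0). This fit has no block for the letters, so that its error and these SDs include the difference between the letters. The fold change was −0.05 without shCTR A, −0.18 without shMettl14 B and 1.76 without shCTR B. Counting error was small in comparison, since the lowest count, 1935 in shCTR A, has an exact Poisson 95% interval from 1850 to 2023, which covers counting error only.

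*Gclc* (ENSMUSG00000032350, chromosome 9 from 77754535 to 77794485, plus strand) and *Gclm* (ENSMUSG00000028124, chromosome 3 from 122245557 to 122270732, plus strand) encode the catalytic and the modifier subunit of glutamate-cysteine ligase, which makes the first bond of glutathione. *Gclc* was at 64.2 and 79.4 CPM in shCTR A and B and at 88.8 and 79.7 CPM in shMettl14 A and B. Both shMettl14 libraries were above both shCTR libraries, but in letter B the gap was within counting error, as the 95% Poisson intervals of 77.7 to 81.1 CPM in shCTR B and 78.2 to 81.3 CPM in shMettl14 B overlap. Its log2 ratio was 0.47 within A and 0.006 within B, and the fitted value was 0.23 ± 0.21 SE. *Gclm* was at 101 and 77.9 CPM in shCTR A and B and at 85.3 and 69.4 CPM in shMettl14 A and B. It was lower with shMettl14 in both letters (log2 ratios −0.24 and −0.17), the groups overlapped, and the log2 fold change was −0.21 ± 0.23 SE. Without shCTR A that of *Gclm* was −0.006, and that of *Gclc* ranged from 0.09 without shCTR A to 0.39 without shCTR B. Of the exon bases of *Gclm*, 3.88% overlap another gene on the same strand and 4.71% one on the other strand.

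The subunits of the ligase thus had fitted differences of opposite sign. The ratio of *Gclc* to *Gclm* per kilobase of exon was 1.07 and 1.70 in shCTR A and B and 1.74 and 1.92 in shMettl14 A and B. Both shMettl14 libraries were above both shCTR libraries in this ratio, by a log2 ratio of 0.70 within A and 0.17 within B, and shCTR A was the library apart from the rest. This ratio was singled out after its values had been seen.

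The second group keeps protein thiols reduced. *Txnrd1* (ENSMUSG00000020250, chromosome 10 from 82833951 to 82897712, plus strand) encodes the cytosolic thioredoxin reductase. It was at 319 and 314 CPM in shCTR A and B and at 295 and 286 CPM in shMettl14 A and B. These were the most even values among the 10 genes, and both shMettl14 libraries were below both shCTR libraries. The means were 316 ± 3.36 and 290 ± 6.78 CPM (SD, n = 2), which puts shMettl14 at 91.8% of shCTR, and the log2 fold change was −0.12 ± 0.18 SE (edgeR, adjusted p = 1.0). It stayed between −0.15 and −0.10 when each library was left out in turn.

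*Srxn1* (ENSMUSG00000032802, chromosome 2 from 152105516 to 152111376, plus strand) encodes sulfiredoxin, which restores peroxiredoxins that have been overoxidized. Its level was 86.6 and 67.9 CPM in shCTR A and B and 76.1 and 58.0 CPM in shMettl14 A and B. It was lower with shMettl14 within each letter, with a ratio of −0.19 for A and −0.23 for B (log2), and the groups overlapped because letter B was below letter A in both. The fitted log2 fold change was −0.20 ± 0.25 SE, and it was −0.01 without shCTR A. *Gclm* had nearly the same pattern over the 4 libraries, with B below A by 0.37 and 0.30 on the log2 scale against 0.35 and 0.39 for *Srxn1*.

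*Hmox1* (ENSMUSG00000005413, chromosome 8 from 75093621 to 75100589, plus strand) encodes heme oxygenase 1, the inducible enzyme that opens heme to biliverdin, iron and carbon monoxide. Its level was 564 and 354 CPM in shCTR A and B and 414 and 241 CPM in shMettl14 A and B. It was lower with shMettl14 in both letters by similar amounts, and the log2 ratio was −0.45 within A and −0.55 within B. Letter B was lower than letter A by 0.67 with shCTR and 0.78 with shMettl14 on the log2 scale, so that shMettl14 A was above shCTR B and the groups overlapped. The means were 459 ± 148 and 328 ± 122 CPM (SD, n = 2), and the log2 fold change was −0.49 ± 0.37 SE (edgeR, adjusted p = 1.0). It ranged from −0.93 to −0.11 when each library was left out, and the value nearest 0 was that without shCTR A.

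*Nqo1* (ENSMUSG00000003849, chromosome 8 from 107388225 to 107403206, minus strand) encodes a quinone reductase that is often used as a readout of NRF2. Its level was 58.2 and 32.9 CPM in shCTR A and B and 47.8 and 38.9 CPM in shMettl14 A and B. As for *Keap1*, the shCTR libraries enclosed both shMettl14 libraries, with a log2 ratio of −0.28 within A and 0.24 within B. The log2 fold change was −0.07 ± 0.33 SE, and it was 0.40 without shCTR A and 0.07 without shMettl14 B. *Nqo1* and *Hmox1* thus shared the lower level in letter B but not the sign of the hairpin difference within it.

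*Sod2* (ENSMUSG00000006818, chromosome 17 from 13006846 to 13040063, plus strand) encodes the manganese superoxide dismutase of mitochondria, which is also a target of NF-kappaB. Its level was 55.1 and 52.1 CPM in shCTR A and B and 50.4 and 44.2 CPM in shMettl14 A and B. Both shMettl14 libraries were below both shCTR libraries, at 88.2% of the shCTR mean. The log2 ratio was −0.13 within A and −0.24 within B, and the log2 fold change of −0.18 ± 0.19 SE did not pass the test (edgeR, adjusted p = 1.0). It was −0.09 in the nearest case to 0 when each library was left out, and −0.28 in the farthest.

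Whether the letter or the hairpin separated the libraries more was compared gene by gene. The measure was the absolute value of the mean log2 difference between letters, against that between hairpins. Differences of opposite sign thus cancel in it. The letters differed more for 7 of the 10 genes, beside 64.2% of all genes tested. The exceptions were *Gclc*, *Txnrd1* and *Sod2*. These were also the genes without overlap between the groups, and such a gene is always an exception by this measure, so this adds no separate result. The direction of the letter difference was not shared, as *Nfe2l2* and *Slc7a11* were higher in B under both hairpins whereas *Hmox1*, *Nqo1*, *Keap1*, *Gclm* and *Srxn1* were higher in A under both, as were *Sod2* and *Txnrd1* by a small margin.

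**Figure D3:**
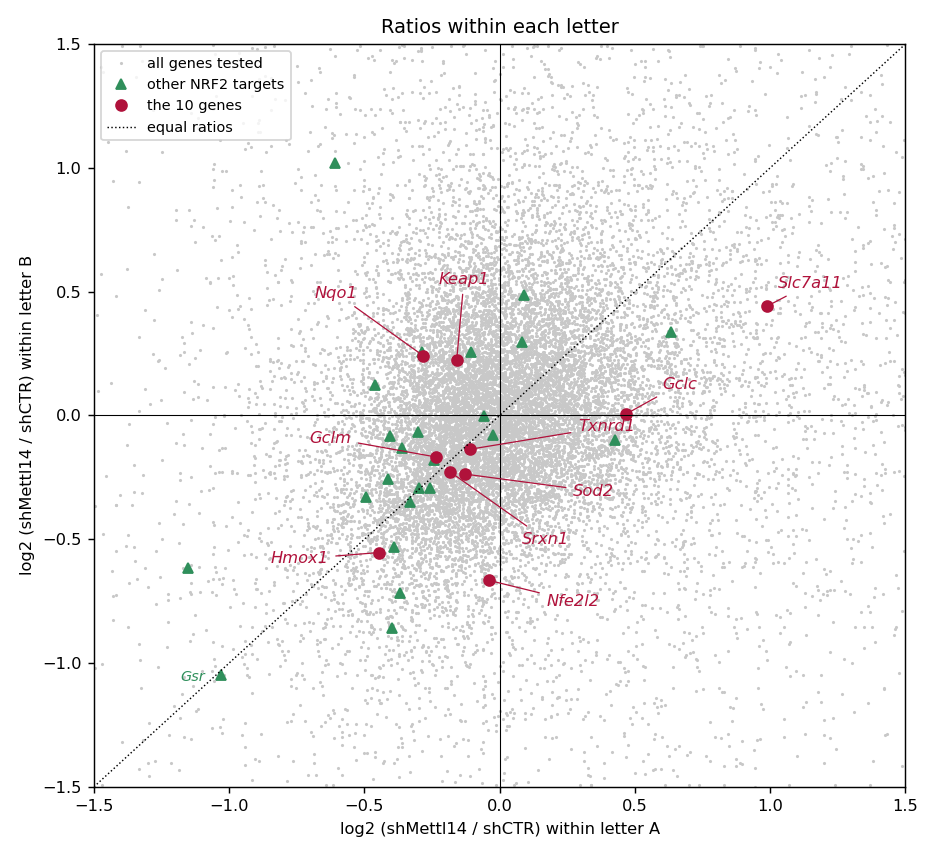
Log2 ratio of shMettl14 to shCTR within letter A (x axis) and letter B (y axis) for all genes tested (gray), the 24 other NRF2 targets (green triangles) and the 10 genes (red circles), with the line of equal ratios dotted. *Hmox1*, *Gclm*, *Srxn1*, *Txnrd1*, *Sod2* and *Nfe2l2* lie in the lower left quadrant and *Slc7a11* and *Gclc* in the upper right, and of the 18916 genes tested 1938 lie outside the axes, which end at 1.5 in each direction.

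Levels of different genes were compared per kilobase of exon, as the mean over the 4 libraries. *Hmox1* was highest at 225 CPM per kilobase, and its lowest library (138) was above the highest of every other member. *Nfe2l2* (51.1) and *Txnrd1* (42.8) followed, and their ranges over the libraries overlapped. *Nqo1* (28.6), *Srxn1* (25.6) and *Gclc* (20.7) came next and overlapped from neighbor to neighbor, as did *Gclm* (13.2) and *Keap1* (9.41) after them. *Sod2* (5.04) and *Slc7a11* (3.46) were lowest and overlapped, since *Slc7a11* ranged from 1.22 to 5.87. The exon lengths are those of all annotated transcripts merged, 13.92 kilobases for *Slc7a11* and 10.01 for *Sod2* against at most 7.086 for the other members, and a gene whose shorter transcripts prevail gets too low a value by this measure.

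The wider pathway was examined through lists that were chosen with earlier results of these data known. No gene of these lists passed an adjusted p under 0.05 with edgeR. Of all genes tested, 27.6% were lower and 30.0% higher with shMettl14 in both letters. Of 10 regulators of NRF2, 3 were lower and 1 was higher in both, the former near the share of all genes. Without overlap between the groups, 1 lay below and 1 above, beside 13.3% and 14.7% of all genes tested. The median log2 fold change was −0.08, but it differed in sign between the letters (−0.13 within A and 0.04 within B). The higher gene was *Bach1*, a repressor that competes with NRF2 at antioxidant response elements and holds *Hmox1* down. Its level was 32.6 and 32.2 CPM in shCTR A and B and 48.1 and 41.8 CPM in shMettl14 A and B, without overlap, with a log2 fold change of 0.47 ± 0.20 SE (edgeR, unadjusted p = 0.063). *Rbx1*, the RING subunit of the cullin 3 ligase, was at 91.1 and 109 CPM in shCTR and at 74.2 and 60.8 CPM in shMettl14 (edgeR, unadjusted p = 0.048). *Cul3* itself (84.0 to 126 CPM) and the related factor *Nfe2l1* (548 to 730 CPM) overlapped between the groups, each with a log2 fold change of −0.20 that turned to the other side of 0 without shCTR B and without shCTR A, respectively.

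Of 24 further NRF2 targets, 16 were lower and 3 higher with shMettl14 in both letters, beside 27.6% and 30.0% of all genes tested. Both shMettl14 libraries were below both shCTR libraries for 9 and above for 0, beside 13.3% and 14.7% of all. Their median log2 fold change was −0.24 (−0.32 within A and −0.12 within B). *Gsr*, the reductase that returns oxidized glutathione to its reduced form, had the largest difference. It was at 27.1 and 42.6 CPM in shCTR A and B and at 13.3 and 20.6 CPM in shMettl14 A and B, with log2 ratios of −1.03 and −1.05 within the letters and a log2 fold change of −1.04 ± 0.35 SE (edgeR, unadjusted p = 0.031, adjusted p = 1.0). *Fth1*, the heavy chain of ferritin (1481 and 1651 CPM in shCTR and 1146 and 1003 CPM in shMettl14), and *Blvrb*, a biliverdin reductase (26.6 and 27.6 CPM in shCTR and 20.2 and 15.2 CPM in shMettl14), were also lower without overlap, with unadjusted p of 0.038 and 0.049 from edgeR. *Aox1*, an aldehyde oxidase, had the highest fold change of this list at 0.45 on the log2 scale, and its groups overlapped.

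**Figure D4:**
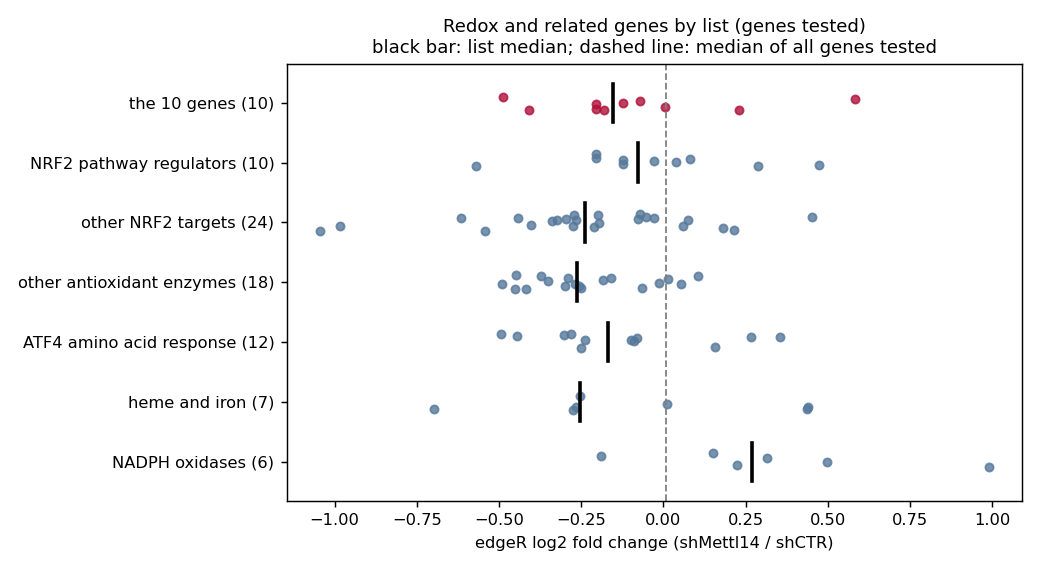
Log2 fold change of each gene tested (points) in the 10 NRF2 genes (red) and in the lists around them (blue), with the number of genes in parentheses, the median of each list as a black bar and the median of all genes tested (0.0094) as a dashed line. The medians run from −0.26 for other antioxidant enzymes to 0.27 for NADPH oxidases, beside −0.15 for the 10 genes.

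Among 18 other antioxidant enzymes, 12 were lower and 0 higher with shMettl14 in both letters, beside 27.6% and 30.0% of all genes tested, and the median log2 fold change was −0.26. *Sod1*, the cytosolic superoxide dismutase, was at 192 and 214 CPM in shCTR and at 140 and 149 CPM in shMettl14, and *Prdx2*, a peroxiredoxin, was at 285 and 250 CPM in shCTR and at 209 and 191 CPM in shMettl14. The groups did not overlap for either, and 6 of the 18 lay below in this way, beside 13.3% of all genes tested, whereas they overlapped for the glutathione peroxidases *Gpx1* and *Gpx3* (log2 fold change −0.45 each). Of 6 NADPH oxidase genes that could be tested among 8, 2 were higher in both letters and 0 were lower in both, and the share higher was close to the 30.0% of all genes tested. The higher genes were *Nox4*, the oxidase that makes hydrogen peroxide in smooth muscle (25.5 and 35.2 CPM in shCTR and 37.9 and 47.7 CPM in shMettl14), and *Duox1*, a related oxidase (0.924 and 0.815 CPM in shCTR and 2.01 and 1.45 CPM in shMettl14).

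The list of 12 genes of the ATF4 response, to which *Slc7a11* is also known to belong, had 6 lower and 1 higher in both letters. These stand beside 27.6% and 30.0% of all genes tested. The median was −0.17, but it differed in sign between the letters (−0.31 within A and 0.04 within B). Both shMettl14 libraries were below both shCTR libraries for 3 of the 12 and above for 1, beside 13.3% and 14.7% of all. *Ddit3*, a stress transcription factor (72.1 and 61.0 CPM in shCTR and 45.6 and 52.2 CPM in shMettl14), and *Shmt2*, a mitochondrial enzyme of serine use (84.8 and 95.3 CPM in shCTR and 65.3 and 62.8 CPM in shMettl14), were lower without overlap. *Chac1*, which degrades glutathione, had a log2 fold change of −0.30 with overlap (0.07 without shCTR A). *Cth*, which makes cysteine, had a log2 fold change of 0.27 and was the gene above without overlap. The log2 fold change of *Slc7a11*, at 0.58, was higher than each of these. Of 7 heme and iron genes around *Hmox1*, 4 were lower and 1 higher in both letters, beside 27.6% and 30.0% of all genes tested. The groups did not overlap for these, with 4 below and 1 above, beside 13.3% and 14.7% of all. *Slc48a1*, a heme transporter, was at 247 and 201 CPM in shCTR and at 146 and 131 CPM in shMettl14 (log2 fold change −0.70 ± 0.21 SE, edgeR, unadjusted p = 0.021). *Tfrc*, the transferrin receptor, was at 28.4 and 26.4 CPM in shCTR and at 32.6 and 41.7 CPM in shMettl14, the reverse direction of *Fth1*. *Hmox2*, the constitutive heme oxygenase (43.6 and 43.3 CPM in shCTR and 34.9 and 36.9 CPM in shMettl14), shares 40.2% of its exon bases with the other strand, and *Fech*, the last enzyme of heme synthesis, had a log2 fold change of −0.27. The summed VSMC markers were lower in both shMettl14 libraries as well. Of the 6 markers, 5 were lower in both letters, beside 27.6% of all genes tested. *Lmod1* was higher in letter B, at 109 CPM in shCTR and 124 CPM in shMettl14. Only *Acta2* and *Tagln*, 2 of the 6 beside 13.3% of all genes tested, lay below without overlap. Of the exon bases of *Tagln*, 67.9% overlap a gene on the other strand, and whether counting used strand is not given. The part of VSMC markers in these lists was not tested.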

How the data were processed

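The authors prepared stranded, poly-A–enriched libraries, aligned read pairs to mm10 (GRCm38) using STAR and summarized them by gene using featureCounts. They deposited raw counts of 48587 gene symbols in 4 libraries. Whether counting used strand, and how reads with several positions were treated, is not given in the sources used here.

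Hairpins were compared in edgeR 4.0.16 (R 4.3.3) by TMM factors, filterByExpr and a robust quasi-likelihood fit without a block, with Benjamini-Hochberg adjustment over 18916 genes and a threshold of 0.05. Levels are TMM-scaled CPM, and within-letter ratios are differences of log2 CPM with a prior count of 2. Standard errors were derived from the fold change and its F statistic. The fits were tested on simulated data. With letters alike, each recovered the changed genes. With letters that differed as measured, edgeR without a block did not, whereas edgeR with the block and DESeq2 with or without it recovered most. DESeq2 1.42.0, other factors and filters, a replicate block and each library left out were alternatives. Gene positions and exon lengths are from GENCODE M21 (GRCm38) and promoters from RefSeq (GRCm38.p6).

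The 10 genes and all lists were chosen with earlier results of these data known. All 10 genes are named, and per list other than the cell type markers at most 4 genes with the largest mean ratio of 1 sign in both letters and at least 1 CPM, plus any with an unadjusted p under 0.05. Cell type markers were given as sums, and *Pecam1*, *Cdh5* and the other single markers were named after their values were seen. Of 8 heme and iron genes, 7 were matched by symbol.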

Additional observations from a re-analysis of the deposited data

How the results depend on the processing

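None of the 10 genes had an adjusted p under 0.05 under any alternative run. Over all genes the count was 0 with RLE factors, with upper-quartile factors, without a filter and with at least 10 counts in every library, 4 with DESeq2, and 0 to 1 when each library was left out (1 without shCTR B). Letters were not stated to pair the libraries, but deviations of same-letter libraries correlated at 0.578. A replicate block gave 9 genes with edgeR and 124 with DESeq2 (34 higher and 90 lower). At an unadjusted p under 0.05, the block counted 2 of the 10 genes with either tool, beside 1941 of all genes with edgeR and 1484 with DESeq2 (315 without the block in edgeR). With DESeq2 these were *Hmox1* and *Slc7a11* (adjusted p = 0.17 and 0.066). The log2 fold change of *Slc7a11* with the block was 0.714 ± 0.178 SE in edgeR (adjusted p = 0.23) and 0.705 ± 0.212 SE in DESeq2. That of *Hmox1* was −0.50 ± 0.157 SE in edgeR (adjusted p = 0.34) and −0.509 ± 0.178 SE in DESeq2. Leaving out libraries counted 0 to 1 (*Nfe2l2* without shCTR A, beside 1399 of all genes). In the wider lists the block with DESeq2 called 2 genes, *Gsr* (adjusted p = 0.00017) and *Slc48a1* (adjusted p = 0.018), and with edgeR 0. Among the 10 genes and the genes named from the redox, ATF4 and heme lists, the block changed no other call. *Mettl14* passed with DESeq2 (−2.09, adjusted p = 2e-09), the block (−2.08, adjusted p = 0.0039) and both together (−2.09, adjusted p = 1.6e-14).

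The median log2 fold change of the 10 genes was −0.15 with the block, −0.16 with DESeq2, with RLE factors and with DESeq2 and the block, −0.13 with upper-quartile factors, −0.14 without a filter or with at least 10 counts in every library, and −0.252 to −0.033 when each library was left out. *Keap1* turned to −0.003 with DESeq2 and with RLE factors. When each library was left out, 6 of the 10 genes kept their sign and 4 did not, namely *Keap1* (−0.27 to 0.34), *Nfe2l2* (−0.757 to 0.057), *Nqo1* (−0.43 to 0.40) and *Slc7a11* (−0.18 to 1.76). In the wider lists *Nfe2l1* (−0.39 to 0.01), *Cul3* (−0.44 to 0.081) and *Chac1* (−0.661 to 0.074) also changed sign. The cause was not tested. Leaving out a library leaves 1 in its group, which is then assumed to vary like the other group. The lowest count of the 10 genes in a library was 1935.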
